A study of Homo sapiens with 6 samples.

Results

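RNA of MDA-MB-231 cells, a human line derived from triple-negative breast cancer, was sequenced to compare gene expression with and without mitocurcumin. The 6 aldo-keto reductase genes described here are AKR1A1, AKR1B1, AKR1C1, AKR1C2, AKR1C3 and AKR7A2, taken by symbol from a table of 58656 gene rows, of which 16481 held enough reads to be tested. All 6 passed that filter. They were chosen by their fold changes between these same libraries, which set AKR1C1 and AKR1C3 as lower after treatment apart from the many target genes of the transcription factor NRF2 that were higher. Their changes are therefore given as a description. Where a member is said to pass a threshold, that too is a description and no evidence, since the choice used the same values. One group of 3 libraries came from cells given mitocurcumin at 5 µM for 9 hours, and the other group of 3 from cells given only the DMSO vehicle over the same 9 hours. Mitocurcumin is curcumin, a plant polyphenol, in a form directed to mitochondria. All cells grew in DMEM with serum, and the labels name no genetic change in either group. The labels name the replicates biological but do not say whether they were separate cultures, so the spread given is that between these samples.

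Aldo-keto reductases are soluble enzymes that use NADPH to reduce aldehydes and ketones to alcohols. Several genes of the family, those of the AKR1C group among them, are known targets of NRF2, which is held down by KEAP1 and, when released, pairs with small MAF proteins on antioxidant response elements. AKR1C enzymes also reduce steroids and prostaglandins, and AKR1B1, aldose reductase, turns glucose into sorbitol.

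The AKR1C genes lie next to each other on chromosome 10 and are close copies. Their coding sequences, in GENCODE release 29 transcripts on GRCh38, were each 969 bases long without the stop codon. AKR1C1 and AKR1C2 differed at 19 of these positions, AKR1C1 and AKR1C3 at 83, and AKR1C2 and AKR1C3 at 87. The first stretch of 120 bases with the most differences between AKR1C1 and AKR1C2, bases 43 to 162 from the start codon, is shown. Within it, the differences between AKR1C1 and AKR1C2 begin at base 103. Capitals in the AKR1C1 line mark bases at which either of the others differs, and capitals in the other lines mark bases that differ from AKR1C1.
AKR1C1: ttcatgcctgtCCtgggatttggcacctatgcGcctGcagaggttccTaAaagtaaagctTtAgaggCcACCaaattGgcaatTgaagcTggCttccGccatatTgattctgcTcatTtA
AKR1C2: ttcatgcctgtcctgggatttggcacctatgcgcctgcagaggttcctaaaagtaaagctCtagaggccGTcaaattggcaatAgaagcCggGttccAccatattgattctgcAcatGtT
AKR1C3: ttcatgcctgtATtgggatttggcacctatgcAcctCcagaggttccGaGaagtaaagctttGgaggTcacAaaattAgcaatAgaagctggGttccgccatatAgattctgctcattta
In this stretch AKR1C2 differed from AKR1C1 at 10 bases and AKR1C3 at 13. Elsewhere the copies can be alike over long runs, the longest being 186 bases between AKR1C1 and AKR1C2 and 171 bases between AKR1C2 and AKR1C3.

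**Figure D1:**
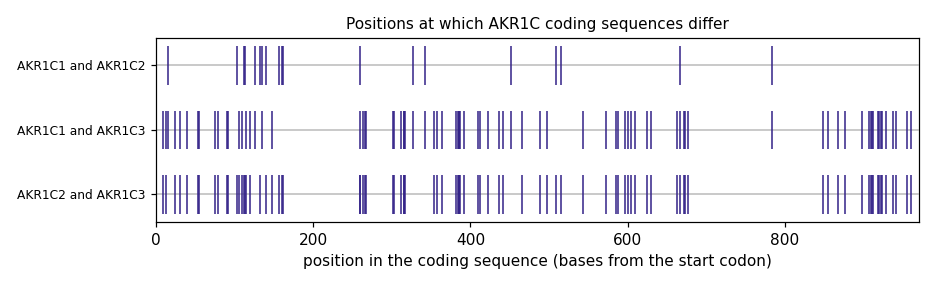
Ticks mark the positions at which each pair of AKR1C coding sequences differs, counted in bases from the start codon (x axis). The pair AKR1C1 and AKR1C2 has 19 ticks, 10 of them within bases 43 to 162, against 83 and 87 for the pairs with AKR1C3.

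Windows of 75 bases, taken as an example since the read length is not given in the sources used here, were found unchanged in another of the 6 genes for 35.2% of AKR1C1, 40.8% of AKR1C2 and 15.1% of AKR1C3. No such window of AKR1A1, AKR1B1 or AKR7A2 was found in another of the 6. Relatives outside the 6, such as AKR1B10 and AKR7A3, were not compared, nor were untranslated parts. How the authors divided reads among the AKR1C rows is not stated, so the split between AKR1C1 and AKR1C2 in particular is uncertain, while their sum is less so. Outside the cluster, coding identity between the members was lower, from 41.7% for AKR1C3 and AKR7A2 to 58% for AKR1A1 and AKR1B1.

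Library totals ran from 23146822 to 29104681 counts. The labelled cell type was checked by VIM, at means of 2163 CPM (counts per 1000000 counts of the library) in vehicle and 2338 CPM after mitocurcumin, by CD44, at 2095 and 2116 CPM, and by ESR1 and PGR, each under 1 CPM, while ERBB2 was at 30.3 to 48.6 CPM. Of 11 further markers, EPCAM, CDH1, KRT5 and KRT14 are epithelial and the rest mark other cells. CDH5, DCN, ALB, KRT5 and KRT14 stayed under 1 CPM. PECAM1, COL1A2, COL1A1, EPCAM, CDH1 and PTPRC were detected. Of these, PTPRC had means of only 1.16 CPM in vehicle and 1.001 CPM after mitocurcumin, and CDH1 of 1.68 and 2.43 CPM. PECAM1 and COL1A2 were lower after treatment, with log2 fold changes of -1.01 ± 0.14 and -1.14 ± 0.15 (SE), whose part in the changes described below was not tested. The column of mitocurcumin replicate 2 bears a sample number that does not follow on from those of the other 5 columns.

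Levels below are CPM on scaled library totals, computed from the deposited estimated counts. Set per kilobase of coding sequence, so that genes can be compared, the order in vehicle cells was AKR1B1 at 199 ± 27.3 CPM per kilobase (SD, n = 3), AKR1C3 at 38.6 ± 0.922, AKR1C1 at 27.4 ± 3.75, AKR7A2 at 18.7 ± 1.15, AKR1A1 at 17.97 ± 1.78 and AKR1C2 at 2.79 ± 0.203. Only AKR7A2 and AKR1A1, neighbours in this order, overlapped between libraries. After mitocurcumin the order was AKR1B1 (248 ± 13.3), AKR1C3 (31.7 ± 2.08), AKR1A1 (20.8 ± 2.33), AKR1C1 (17.9 ± 0.743), AKR7A2 (14.8 ± 1.18) and AKR1C2 (1.86 ± 0.465), with no overlap between neighbours. AKR1A1 thus stood above AKR1C1 and AKR7A2 in the treated cells. In vehicle cells it stood below AKR1C1 and overlapped AKR7A2. These per-length levels assume coding length, and reads from untranslated parts are counted in them too.

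For each of the steroid-reducing enzymes of the AKR1C cluster, every treated library was below every vehicle library, as was the case for 23.7% of all genes tested. AKR1C1 and AKR1C3 were called lower at an adjusted p under 0.05 in edgeR's quasi-likelihood test, and AKR1C2 was not. AKR1C1, which inactivates progesterone (Entrez 1645, chromosome 10, 4963415 to 4983283, plus strand, GRCh38), measured 29.96, 27.03 and 22.7 CPM in vehicle replicates 1, 2 and 3. In mitocurcumin replicates 1, 2 and 3 it measured 17.8, 16.5 and 17.6 CPM. The treated libraries lay close together and the vehicle libraries were spread more widely, with replicate 3 the lowest. The log2 fold change was -0.62 ± 0.11 (SE), 0.652 times the vehicle level. In bulk RNA a smaller number of expressing cells and less RNA in each cell cannot be told apart, here and below.

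AKR1C2, which inactivates the androgen dihydrotestosterone (Entrez 1646, chromosome 10, 4987775 to 5018000, minus strand), was the scarcest member. Vehicle replicates 1 to 3 held 66.8, 71.9 and 57.8 estimated counts, or 2.84, 2.78 and 2.47 CPM. The mitocurcumin replicates held 46.2, 31.2 and 64.4 estimated counts, or 1.86, 1.32 and 2.22 CPM. Replicate 2 was the lowest treated library, and the treated libraries varied by 25.1% around their mean against 7.28% in vehicle. The difference of -0.57 ± 0.24 did not pass the threshold, and it was -0.39 without that library.

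AKR1C3, which makes testosterone and prostaglandin F from their ketone precursors (Entrez 8644, chromosome 10, 5048781 to 5107686, plus strand), measured 38.3, 36.6 and 37.2 CPM in the vehicle libraries. The values were 28.8, 30.4 and 32.8 CPM after mitocurcumin. The vehicle libraries were the tightest of any member, varying by 2.39%. The change was -0.28 ± 0.08, and AKR1C3 was no longer called without mitocurcumin replicate 1, at -0.23, or replicate 2, at -0.27. In value it was smaller than that of AKR1C1, and the ratio of AKR1C1 to AKR1C3 went from 0.781, 0.739 and 0.611 in vehicle to 0.619, 0.542 and 0.537. Those ratios overlapped between the groups, through vehicle replicate 3 and mitocurcumin replicate 1.

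Summing the cluster sets aside how reads were split within it. AKR1C1, AKR1C2 and AKR1C3 together made 71.1, 66.4 and 62.5 CPM in the vehicle libraries and 48.5, 48.2 and 52.7 CPM in the treated ones. AKR1C3 took 53.9% to 59.6% of that sum in vehicle and 59.4% to 63.04% after mitocurcumin, AKR1C1 36.4% to 42.1% and 33.5% to 36.8%, and AKR1C2 2.76% to 4.24% over all 6 libraries. With AKR1C4 added, whose mean was 0.0994 CPM in vehicle, the summed row had a change of -0.42 ± 0.07. No row with reads overlapped any of the members in the table.

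AKR7A2, a reductase of succinic semialdehyde and of aflatoxin aldehyde (Entrez 8574, chromosome 1, 19302708 to 19312146, minus strand), was lower in the same way. It stood at 21.1, 20.7 and 18.8 CPM in vehicle and at 16.01, 14.6 and 17.1 CPM after mitocurcumin. The groups did not overlap, and replicate 2 was again the lowest treated library. The change was -0.34 ± 0.10, and -0.27 without that library. AKR7A2, too, was no longer called without vehicle replicate 2 or mitocurcumin replicate 1 or 2.

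AKR1B1, the aldose reductase (Entrez 231, chromosome 7, 134442350 to 134459239, minus strand) was the most abundant member, at 218, 176 and 172 CPM in vehicle and 249.8, 229 and 227 CPM after mitocurcumin. Every treated library was above every vehicle library, with vehicle replicate 1 the nearest to them. The change was 0.32 ± 0.08, or 1.25 times the vehicle level. AKR1A1, aldehyde reductase (Entrez 10327, chromosome 1, 45550826 to 45570049, plus strand), gave 16.9, 19.5 and 16.2 CPM in vehicle and 18.4, 22.8 and 19.5 CPM after mitocurcumin, and these overlapped. Its difference of 0.21 ± 0.11 did not pass the threshold, and it was 0.13 without mitocurcumin replicate 2, its highest library.

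**Figure D2:**
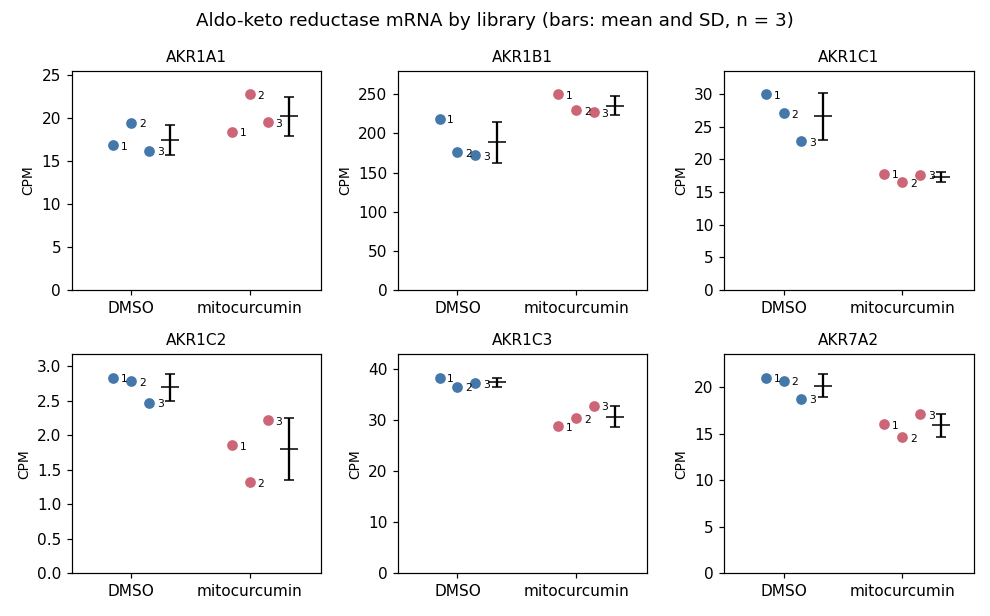
Levels in CPM (y axes, each from 0) of the 6 aldo-keto reductases in each library, numbered by replicate, with the mean and SD of 3 libraries beside the points. The treated points of AKR1C1, AKR1C2, AKR1C3 and AKR7A2 sit below all vehicle points, those of AKR1B1 sit above them, and those of AKR1A1 overlap.

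Counted together, 4 of the 6 members had all treated libraries below all vehicle libraries, beside 23.7% of the genes tested, and 1 had them all above, as did 21.2%. At an adjusted p under 0.05 in edgeR's quasi-likelihood test, 3 counted as lower (AKR1C1, AKR1C3 and AKR7A2) and 1 as higher (AKR1B1). The shares over all genes were 17.8% lower and 14.7% higher, and nothing is read from the members' counts since the choice used this contrast. The median change of the 6 was -0.31, beside -0.01 over all genes tested. With AKR1B1 the most abundant, the 6 genes together made 269 to 328 CPM in vehicle and 315 to 333 CPM after treatment.

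Of 14 further aldo-keto reductase rows, 8 were tested, with 1 higher and 1 lower at the edgeR threshold. Both are subunits of voltage-gated potassium channels rather than free enzymes. KCNAB3 rose by 0.77 ± 0.21 on the log2 scale, from 2.54 to 4.34 CPM (edgeR adjusted p = 0.01), and KCNAB2 changed by -0.76 ± 0.26, from 2.57 to 1.51 CPM (edgeR adjusted p = 0.0314). The nearest relatives of AKR1B1 did not pass: AKR1B10, a retinal reductase and known NRF2 target, had 1.26 and 1.003 CPM with a difference of -0.36 ± 0.42, and AKR1B15 had 7.14 and 7.01 CPM with -0.03 ± 0.16. AKR1E2, which lies beside the AKR1C cluster, had a difference of -0.03 ± 0.21, whose sign turned with upper quartile scaling, at 0.001, and without vehicle replicate 3 or mitocurcumin replicate 1. KCNAB1, AKR7L and AKR1D1 gave 0.19 ± 0.19, -0.25 ± 0.38 and 0.88 ± 0.58 without passing, AKR1D1 at under 1 CPM in every library. AKR1C4, AKR1C8, AKR7A3 and the pseudogenes AKR1C6P, AKR1C7P and AKR7A2P1 were too low to test.

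The NRF2 list set beside them held 39 targets that are not aldo-keto reductases, of which 36 were tested. At the edgeR threshold 17 were higher, 2 lower and 17 not called, with a median change of 0.18. Over all genes tested, 14.7% were higher and 17.8% lower, with a median of -0.01. The targets named below are mostly those that rose. HMOX1, heme oxygenase, went from 5.43 ± 0.873 to 36.1 ± 5.69 CPM (SD, n = 3), SLC7A11, the cystine transporter, from 60.4 ± 2.81 to 347 ± 5.03 CPM, and SQSTM1, an autophagy receptor, from 243 ± 18.4 to 574 ± 27.2 CPM. The subunits of the enzyme that starts glutathione synthesis rose as well, GCLC by 0.63 ± 0.07 and GCLM by 0.44 ± 0.06. SRXN1, sulfiredoxin, OSGIN1 and TXNRD1 rose by 0.60 ± 0.06, 1.07 ± 0.20 and 1.06 ± 0.06, and NQO1, a quinone reductase, by 0.17 ± 0.06. The lower targets were the transporters ABCC1 at -0.35 ± 0.06 and ABCB6 at -0.41 ± 0.13.

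Among genes that set NRF2 activity, 5 of 10 were higher and 3 lower, beside 14.7% and 17.8% over all genes tested. NFE2L2, which encodes NRF2, rose from 159 ± 5.68 to 243 ± 9.76 CPM, by 0.61 ± 0.05. Its partners MAFG and MAFF rose by 0.93 ± 0.07 and 0.90 ± 0.09, while MAFK at 0.25 ± 0.12 did not pass. BACH1, a repressor that competes for the same elements, rose by 0.54 ± 0.05, and NFE2L1, a relative of NRF2, by 0.70 ± 0.05. KEAP1, CUL3 and RBX1, parts of the ligase that marks NRF2 for destruction, changed by -0.32 ± 0.09, -0.21 ± 0.06 and -0.36 ± 0.11. BTRC, which belongs to another such ligase, gave 0.02 ± 0.07 and did not pass.

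**Figure D3:**
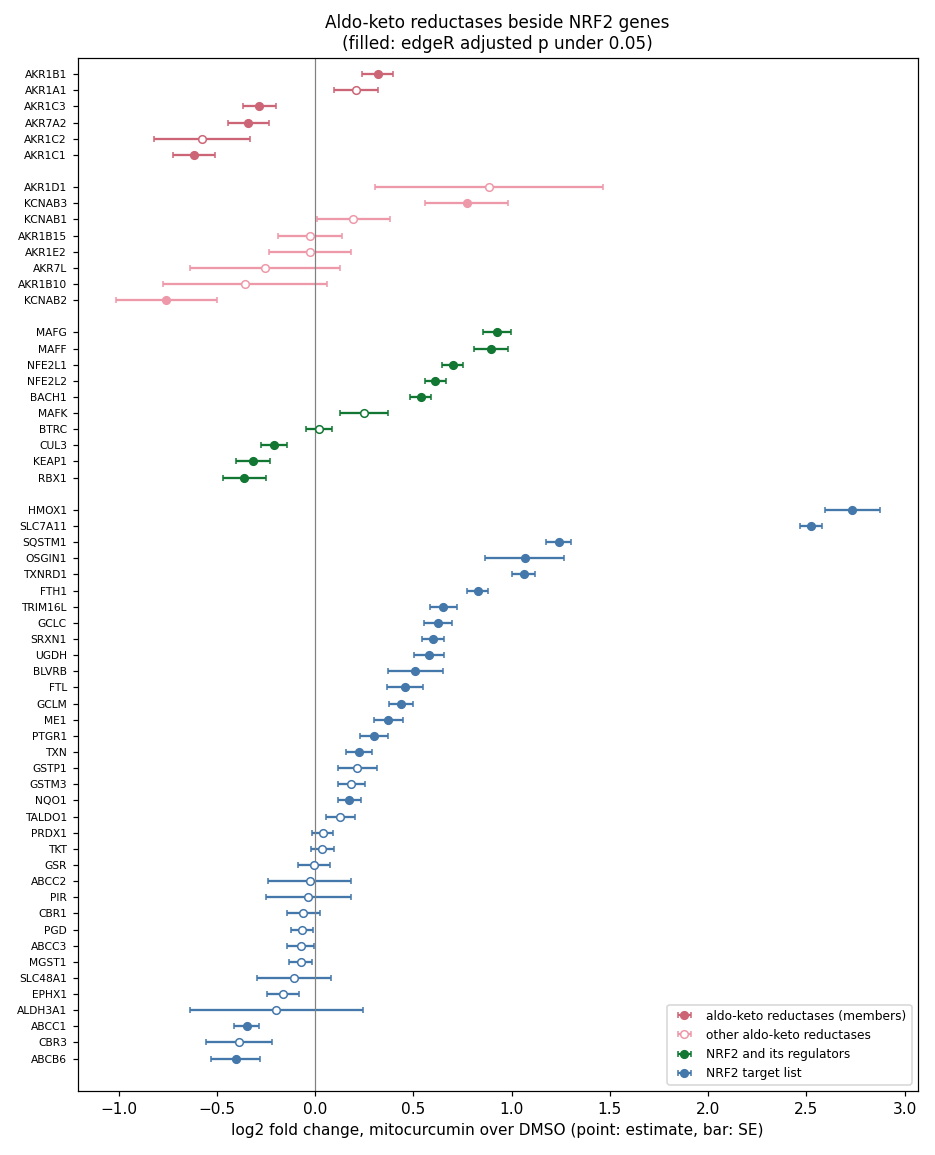
Log2 fold change (x axis, mitocurcumin over DMSO, bars are SE) of the 6 members, of other aldo-keto reductases, of NRF2 with its regulators and of the NRF2 target list (1 gene not shown), with filled points where the edgeR adjusted p was under 0.05. AKR1C1 at -0.62 and AKR1C2 at -0.57, which was not called, lie left of every gene of the NRF2 list, whose lowest value is -0.41. AKR7A2 at -0.34, AKR1C3 at -0.28, AKR1A1 at 0.21 and AKR1B1 at 0.32 lie within the range of that list. KCNAB2, not a member, lies further left than AKR1C1, at -0.76. The members were chosen by their changes in these libraries.

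Of the genes within 500 kilobases of the AKR1C cluster that are not members, 6 were tested, and 4 were lower and 0 higher at the edgeR threshold, against 17.8% lower and 14.7% higher over all genes tested. None was higher at an unadjusted p under 0.05 either (0 in edgeR), nor by adjusted p in DESeq2 or limma (0 each). NET1, a guanine exchange factor for the GTPase RhoA, lies 304871 bases from the cluster and went from 269 ± 7.03 to 191 ± 3.28 CPM, a change of -0.49 ± 0.05 (edgeR adjusted p = 1.4e-06). The long noncoding RNA MANCR, 285345 bases away on the other side, went from 45.7 ± 3.16 to 16.02 ± 0.455 CPM, a change of -1.51 ± 0.09 (edgeR adjusted p = 1.8e-09). LINC00705 changed by -1.39 ± 0.28 and LASTR, a further noncoding RNA, by -1.01 ± 0.24. LINC00705 lies inside the MANCR row on the opposite strand, so without knowing whether strand was used their reads cannot be told apart. LINC02561, nearer to the cluster, gave 0.98 ± 0.52 at under 1 CPM in every library and did not pass, like AKR1E2. AKR1E2 and LINC02561 were thus not called, but both had few reads, and a missing call does not show that a decrease was absent. Whether the neighbours and the cluster are linked was not tested.

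**Figure D4:**
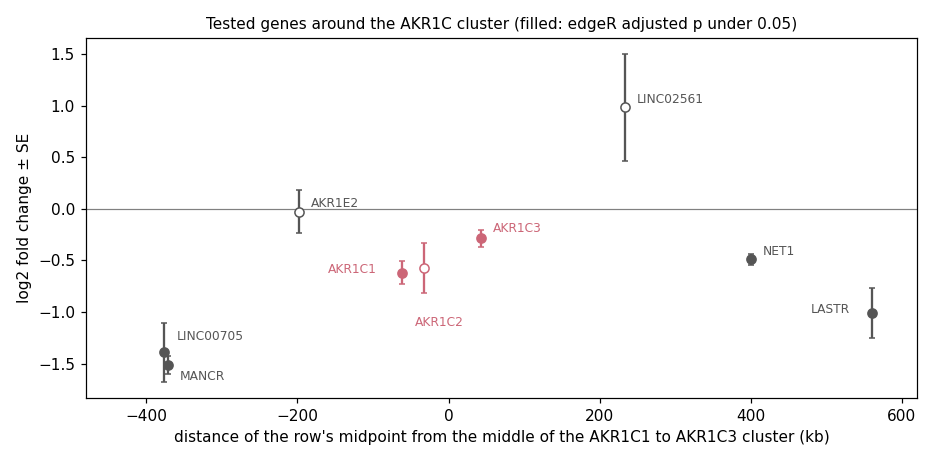
Log2 fold change with SE (y axis) of each tested gene around the AKR1C cluster, placed by the distance in kilobases of its midpoint from the middle of the cluster (x axis), with filled points where the edgeR adjusted p was under 0.05. The 3 AKR1C genes lie between -0.62 and -0.28, with NET1 at -0.49 and MANCR at -1.51 on either side.

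The 250 bases before the start sites of the 6 members were searched for 6 motifs on both strands, in windows that also took in 50 bases after the start (RefSeq, GRCh38.p14). These were the antioxidant response element TGACNNNGC, the AP-1 site TGANTCA, which can overlap it, the C/EBP-ATF site TGATGNAA, the heat shock element GAANNTTC, the E-box CACGTG and the TATA box TATAAA. All 6 members had an entry, and AKR1B1, AKR1C3 and AKR7A2 had 2, of which the first is shown. Shown are AKR1C1, AKR1C3 and AKR7A2, with motif matches in capitals.
AKR1C1, chr10:4963165-4963414, + strand: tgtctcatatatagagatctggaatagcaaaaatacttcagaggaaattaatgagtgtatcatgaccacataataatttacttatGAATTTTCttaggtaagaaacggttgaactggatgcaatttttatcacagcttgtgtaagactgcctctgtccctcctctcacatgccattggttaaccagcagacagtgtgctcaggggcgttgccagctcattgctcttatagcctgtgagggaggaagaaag
AKR1C3, chr10:5048531-5048780, + strand: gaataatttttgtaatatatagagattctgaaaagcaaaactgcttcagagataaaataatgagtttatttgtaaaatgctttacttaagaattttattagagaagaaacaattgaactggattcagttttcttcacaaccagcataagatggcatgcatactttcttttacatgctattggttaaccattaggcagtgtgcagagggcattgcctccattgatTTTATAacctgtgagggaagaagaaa
AKR7A2, chr1:19312147-19312396, - strand: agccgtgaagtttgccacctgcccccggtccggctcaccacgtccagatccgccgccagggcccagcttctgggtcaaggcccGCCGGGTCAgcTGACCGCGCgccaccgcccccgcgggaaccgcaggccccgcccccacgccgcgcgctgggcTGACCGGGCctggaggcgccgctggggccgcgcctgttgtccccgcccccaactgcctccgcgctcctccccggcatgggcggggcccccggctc
AKR7A2, which was lower, held 3 matches to the antioxidant response element, and 13.3% of the 35116 promoter windows held at least 1. The share with 3 was not counted, nor the share among windows as rich in G and C. The other members had no match to the antioxidant response element within their windows. AKR1C1 and AKR1C2 each held GAATTTTC, a match to the heat shock element, which 6.77% of windows hold, and their upstream stretches shared an unbroken run of 245 bases. AKR1C3, 70.7% identical to AKR1C1 upstream of the start shown, held a TATA box on the strand opposite to the gene (11.5% of windows), and AKR1A1 an E-box (7.26%). No member matched the AP-1 site (7.71% of windows) or the C/EBP-ATF site (3.62%). By base composition the AKR1C stretches were poor in G and C, at 40.8% for AKR1C1 and 32% for AKR1C3, and that of AKR7A2 was rich, at 78.8%. A match is a likeness of letters and no evidence of binding, and more distant elements were not searched.

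The genes whose profile over the 6 libraries was nearest to the AKR1C sum, among 11159 with at least 5 CPM, were CHAC2, ST3GAL4, RGS12, GALNT11 and BCR. Their Euclidean distances on the log2 scale ran from 0.0379 to 0.103, after centring on the vehicle mean, and their changes from -0.45 to -0.42. With only 2 groups, this likeness rests mainly on the size of the difference between them.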

How the data were processed

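Polyadenylated RNA of 3 vehicle and 3 mitocurcumin samples was made into stranded KAPA libraries, per the labels' protocols. The deposited raw values are estimated counts per gene, fractional and not scaled between libraries, as read from the values. The deposited normalized values are on a log2 scale, each library's raw values having been divided by a single factor, with those below the factor listed at 0. Per the submitters' processing notes the build was GRCh38. Genes follow RefSeq models, per the file headers. Which aligner and counter the authors ran, and the counter's use of strand, are not given in the sources used here. Columns were matched to samples by treatment word and replicate number.

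Counts were rounded, which the estimated values required where whole counts had been planned for, and entered edgeR 4.0.16 under R 4.3.3 (robust quasi-likelihood F-test, TMM scaling, filterByExpr at counts of 10 and totals of 15, Benjamini-Hochberg adjustment over 16481 genes, two-sided, threshold 0.05). The group was the only term. SE is the log2 fold change divided by the square root of F. Sequences were compared with Biopython 1.88. The fit was tested on simulated data.

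The members, gene lists and tests were chosen with earlier results of these data known. Named genes were the members, all tested aldo-keto reductases and NRF2 regulators, and preset NRF2 targets. For each list but the cell markers, they included the 3 changed genes with the largest rise and fall. Such genes needed a mean of at least 1 CPM. Tested genes within 500 kilobases of the cluster and the 5 nearest profiles were named too. SORD and the cell markers were named apart from these rules. Of the preset targets, 1 gene is not reported here, though the counts and median of its list include it. Alternatives covered scaling, filters, DESeq2 1.42.0, limma 3.58.1 (voom, and on the authors' log2 values), unrounded counts, summed AKR1C rows, a replicate term, each library left out and a threshold of 0.01.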

Additional observations from a re-analysis of the deposited data

How the results depend on the processing

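All 6 members kept their direction in every alternative run. AKR1C1 (15 alternatives) and AKR1B1 (16) also stayed past the edgeR threshold or that of the tool used, with changes of -0.70 to -0.52 and 0.27 to 0.44. These runs used the libraries by which the members were chosen, so they describe the processing and lend the calls no support. The number of members called lower fell from 3 to 1 without mitocurcumin replicate 1 and also without mitocurcumin replicate 2, and ranged from 1 to 3 over the libraries left out. AKR1C3 lost its call in both of these, at -0.23 and -0.27. AKR7A2 lost it in both and without vehicle replicate 2, at -0.33, -0.27 and -0.32. The number called higher was 1 throughout. The difference of AKR1A1 was 0.13 without mitocurcumin replicate 2. AKR1E2 turned to 0.001 with upper quartile scaling, 0.031 without vehicle replicate 3 and 0.055 without mitocurcumin replicate 1, and over the libraries left out it ran from -0.091 to 0.055.

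Of the NRF2 list, 15 to 19 genes were higher over all 17 alternatives. The number lower, 2, was 1 at an adjusted p under 0.01 and ranged from 1 to 3 over the libraries left out, being 1 without vehicle replicate 2, mitocurcumin replicate 1 or mitocurcumin replicate 2. Over all genes, 1636 to 2872 were higher and 2018 to 3216 lower. With the replicate number as a block, 2643 genes were higher and 3163 lower, and the members gave 1 and 3. Deviations from the group means correlated at 0.101, 0.017 and -0.01 between samples of the same number, so the numbers were not taken to pair the samples. Not every sample correlated best with its own number, since vehicle replicate 2 and mitocurcumin replicate 3 gave 0.091. Other scalings moved the median of all genes from -0.01 to at most 0.02. AKR1C2 had the fewest reads of the members, 31.2 to 71.9 estimated counts in a library, and the part of depth in its spread was not tested.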

Other observations

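Other enzymes that share substrates with the members were counted from lists. These counts stand beside shares of 14.7% higher and 17.8% lower over all genes tested. Of 16 tested carbonyl reductases of the short-chain dehydrogenase family, 0 were higher and 1 lower, CBR4, a mitochondrial quinone reductase, at -0.30 ± 0.09. That count of 0 is edgeR's at an adjusted p under 0.05, and it was also 0 at an unadjusted p under 0.05. Whether it departs from the share over all genes was not tested. Aldehyde dehydrogenases and related enzymes went both ways, 2 higher and 5 lower of 18. ALDH2, the mitochondrial enzyme of acetaldehyde removal, rose from 49.5 ± 3.58 to 66.5 ± 3.65 CPM (SD, n = 3) and ALDH9A1 rose by 0.24 ± 0.06. ALDH1B1, ALDH5A1 and ALDH18A1 changed by -0.55 ± 0.08, -0.46 ± 0.13 and -0.36 ± 0.06. SORD, which follows AKR1B1 in the polyol pathway, gave -0.02 ± 0.09 and did not pass.

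AKR1C3 and AKR1B1 can form prostaglandin F. Of 15 tested prostaglandin genes, 1 was higher and 4 lower, beside 14.7% and 17.8% over all genes tested. The higher gene was PTGR1, which inactivates prostaglandins and is a target of NRF2, at 0.30 ± 0.07. PTGES, which makes prostaglandin E, went from 33.02 ± 6.15 to 19.2 ± 1.27 CPM, and the receptor gene PTGER4 from 10.7 ± 0.581 to 5.57 ± 1.08 CPM. TBXAS1, thromboxane synthase, changed by -0.71 ± 0.16. Of 14 tested genes of steroid metabolism, 1 was higher, 1 lower and 12 not called, beside the same shares over all genes. HSD17B8, at means of 1.63 CPM in vehicle and 2.82 CPM after mitocurcumin, rose by 0.79 ± 0.25. STS, steroid sulfatase, changed by -0.43 ± 0.07.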
